A study of Homo sapiens with 12 samples.

Results

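This account covers 8 stress-response genes on the nCounter PanCancer Pathway Panel, out of 770 panel genes, in DU 145 and PC-3 prostate cancer cells exposed to MS13. The genes were taken by name: HSPA6, HSPA1A and HSPA2 of the HSP70 family, HSPB1 (HSP27), HSP90B1 (GRP94), the ubiquitin genes UBB and RPS27A, and NFE2L2, which encodes NRF2. All 8 were on the panel and all 8 passed the filter on low counts that left 684 genes to test. None of them passed only through the MS13-treated groups. The 4 groups of 3 samples were DU 145 cells with 16 µM MS13 for 24 h, DU 145 controls with vehicle (DMSO) in the medium, PC-3 cells with 16 µM MS13 for 24 h, and PC-3 controls with vehicle. DU 145 and PC-3 are established human lines, derived from a brain and a bone metastasis and independent of androgen. MS13, a diarylpentanoid, is an analog of curcumin. The lines were kept in different media (EMEM for DU 145, F-12K for PC-3), so a difference between the lines and a difference between the media cannot be told apart.

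Heat shock proteins are chaperones that bind unfolded proteins, and their genes are switched on by the factor HSF1, which binds heat shock elements made of inverted GAA units. Ubiquitin is a small protein that tags other proteins for destruction by the proteasome, and cells make it from polyubiquitin genes and from fusions with ribosomal proteins. NRF2 is a transcription factor that switches on antioxidant genes through antioxidant response elements, and it is controlled mainly at the protein level, where KEAP1 directs it to ubiquitin ligation. GRP94 is the HSP90 chaperone of the endoplasmic reticulum, and its gene is a textbook target of the unfolded protein response, which acts through endoplasmic reticulum stress elements.

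The regulatory sequence upstream of 4 of the genes is shown because these genes rose in both lines and hold the matching elements. Each line is the 250 bases before the transcription start in RefSeq (GRCh38.p14, plus strand), read 5′ to 3′. Capitals mark heat shock element units (GAANNTTC or TTCNNGAA) in HSPA6, HSPA1A and HSPB1, and endoplasmic reticulum stress elements (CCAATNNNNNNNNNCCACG, on either strand) in HSP90B1. The sequences lie at chr1:161524290-161524539 for HSPA6, chr6:31815293-31815542 for HSPA1A, chr7:76302423-76302672 for HSPB1 and chr12:103930160-103930409 for HSP90B1.
HSPA6: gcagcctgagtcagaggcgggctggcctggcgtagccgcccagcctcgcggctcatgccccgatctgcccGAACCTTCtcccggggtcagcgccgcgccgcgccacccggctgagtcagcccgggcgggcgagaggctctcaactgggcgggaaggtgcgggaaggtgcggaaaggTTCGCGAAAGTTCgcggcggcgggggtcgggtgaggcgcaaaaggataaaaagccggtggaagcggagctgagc
HSPA1A: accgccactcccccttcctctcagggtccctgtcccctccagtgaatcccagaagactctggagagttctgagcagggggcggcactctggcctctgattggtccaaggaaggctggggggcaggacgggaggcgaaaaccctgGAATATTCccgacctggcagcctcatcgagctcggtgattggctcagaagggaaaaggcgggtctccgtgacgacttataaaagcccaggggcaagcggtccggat
HSPB1: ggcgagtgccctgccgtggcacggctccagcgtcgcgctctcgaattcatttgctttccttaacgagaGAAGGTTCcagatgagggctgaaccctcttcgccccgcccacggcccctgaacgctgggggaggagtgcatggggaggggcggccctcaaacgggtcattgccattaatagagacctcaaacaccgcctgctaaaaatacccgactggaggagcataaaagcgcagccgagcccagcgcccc
HSP90B1: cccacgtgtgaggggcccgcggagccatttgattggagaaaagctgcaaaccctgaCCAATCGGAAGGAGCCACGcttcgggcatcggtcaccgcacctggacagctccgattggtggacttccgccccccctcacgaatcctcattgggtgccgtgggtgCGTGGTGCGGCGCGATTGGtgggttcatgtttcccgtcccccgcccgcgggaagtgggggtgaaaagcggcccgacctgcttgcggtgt

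The window of HSPA6 held 3 heat shock element units, at positions -180 to -173, -74 to -67 and -69 to -62 from the start, of which the second and the third overlap. HSPA1A held 1 unit at -106 to -99 and HSPB1 held 1 at -182 to -175. Of all 35116 promoter windows of this length, 11.6% held at least 1 such unit. HSP90B1 held 2 endoplasmic reticulum stress elements, at -194 to -176 and at -89 to -71, the second on the opposite strand. Of the 35116 windows, 26 (0.074%) held this element. The core letters of the antioxidant response element (TGACNNNGC or TGAGNNNGC, both strands) were in 23.9% of windows. They were found upstream of HSPA6 (2 overlapping matches), HSPA1A and 1 of the 2 listed starts of NFE2L2. That NFE2L2 start lies downstream of the other on the minus strand, and the window of the other start held no match. No heat shock element unit was found in the windows of HSPA2, HSP90B1, RPS27A or NFE2L2. The windows listed for UBB lie inside its annotated gene, so the sequence upstream of UBB was not searched. A match is a description of letters and not a bound site.

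Counts are reporter codes counted per gene without amplification, from 437471 to 604629 per sample over the panel genes. Each sample was divided by the geometric mean of its 40 housekeeping genes, and the values below are these normalized counts. The background limit, the mean of the 8 negative probes plus 2 SD, averaged 20.5 normalized counts in treated DU 145, 27.5 in control DU 145, 34.1 in treated PC-3 and 28.0 in control PC-3 samples. The test was edgeR's quasi-likelihood F-test over all 684 genes, and a gene changed where its p, adjusted by Benjamini-Hochberg, was at most 0.05. DEGs changed and did so 2-fold or more. In the PC-3 controls, the difference between replicates 2 and 3 could not be told from sampling noise (chi-square per degree of freedom 1.04, p = 0.20, against 1.17 to 2.21 in the other 11 of 12 pairs). The highest value, 2.21, set replicate 3 of the MS13-treated PC-3 samples against replicate 1, and leaving out that replicate 3 changed no call of the 8 genes. The like replicates 2 and 3 of the PC-3 controls were counted as 1 sample, and PC-3 controls have n = 2. The labels name both biological replicates and technical repeats, so the p-values measure only the spread between these samples, which may be technical. In bulk RNA, fewer cells with a transcript and less transcript per cell cannot be told apart.

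Of the 8 genes, 6 rose in MS13-treated DU 145 cells (HSPA6, HSPA1A, HSPB1, HSPA2, UBB and HSP90B1) and 2 fell (NFE2L2 and RPS27A). Over all tested genes 19.0% rose and 47.1% fell in DU 145. All 6 that rose were DEGs, against 8.77% of all tested genes that were DEGs and rose. In MS13-treated PC-3 cells all 8 rose and 0 fell, against 21.9% and 36.8% of all tested genes. The same 6 genes were DEGs in PC-3, where 6.58% of all tested genes were DEGs that rose. HSP90B1 was near the 2-fold threshold in PC-3. Its log2 fold change of 1.06 became 0.99, under 2-fold, with the positive control probes. The median log2 fold change was 2.53 over the 8 genes and -0.34 over all tested genes in DU 145, and 2.08 and -0.09 in PC-3. These backgrounds depend on the scaling: 130 genes rose and 322 fell in DU 145, which became 226 and 203 under TMM (a shift of the median by 0.43 on the log2 scale) and 181 and 226 when scaled on the positive control probes (0.28). In PC-3, 150 rose and 252 fell, or 213 and 214 with TMM (a shift of 0.19). The 8 genes made 21.7% to 22.0% of all panel counts in MS13-treated DU 145 cells and 15.04% to 15.65% in DU 145 controls. In PC-3 they made 26.6% to 27.6% with MS13 and 10.71% to 11.05% in PC-3 controls.

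**Figure D1:**
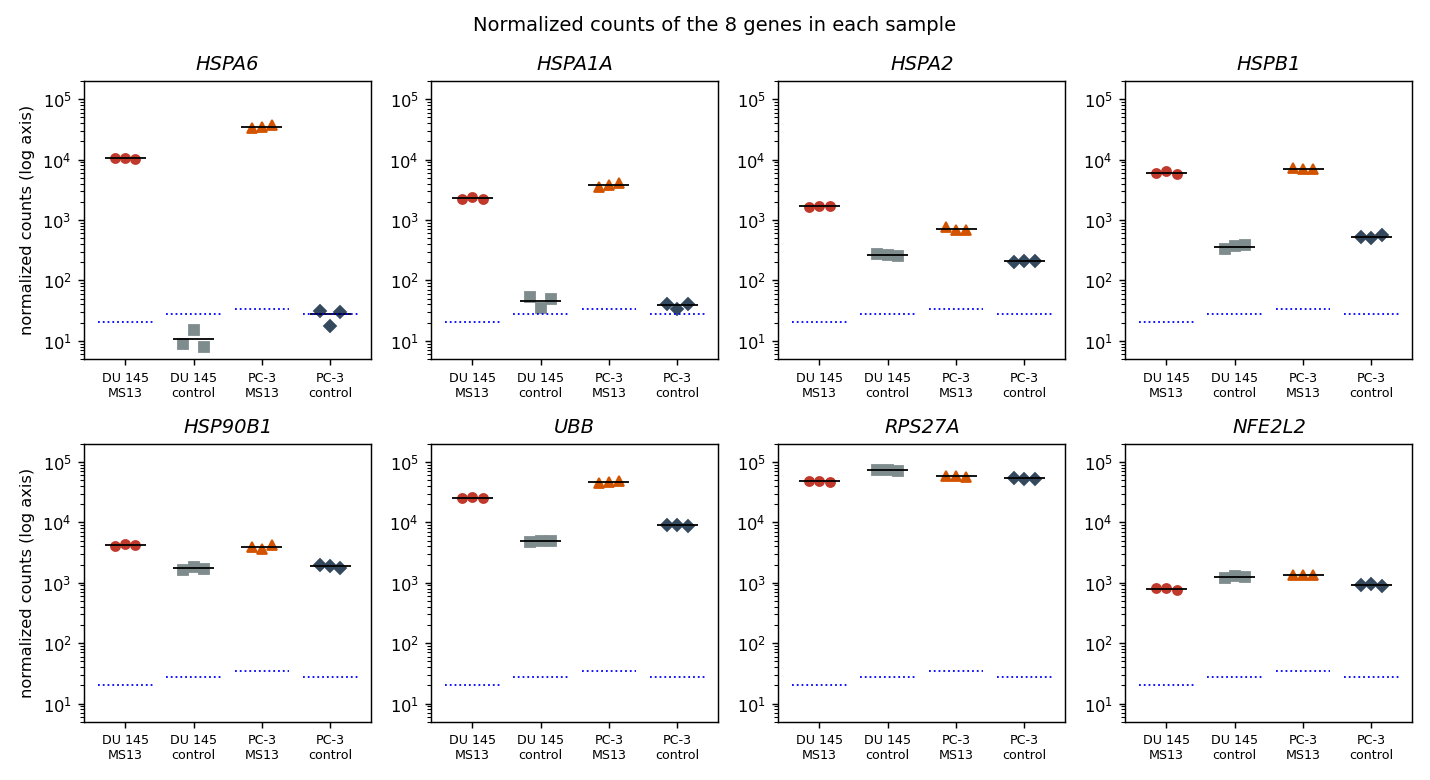
Normalized counts (log axis) of the 8 genes in each sample of the 4 groups, with the group mean as a black line and the background limit of the group as a dotted blue line. HSPA6 lay near or under the limit in the controls of both lines and at 10202 or more in every MS13-treated sample, whereas RPS27A stayed between 46914 and 74414 in all samples.

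HSPA6 encodes HSP70B′, an HSP70 of human cells that is nearly silent without stress. It had 10814, 10713 and 10202 normalized counts in the MS13-treated DU 145 samples, against 8.72, 15.4 and 7.98 in the DU 145 controls. In PC-3 it had 33050, 34926 and 36977 in the MS13-treated samples, against 31.2, 17.8 and 29.6 in the controls. All 3 DU 145 controls lay under the background limit, while PC-3 control replicates 1 and 3 lay just above their own limits and replicate 2 under it. Both control means were under the limits, so folds were taken against the limit. HSPA6 was at least 385-fold higher in MS13-treated DU 145 cells (adjusted p = 3.82e-83). In PC-3 the treated mean was 1250.5 times the limit (adjusted p = 9.32e-86), but the control mean of 27.5 lay barely under the limit of 28.0, so this is no firm bound. The fitted log2 fold change there had a lower 95% limit of 10.02 and was 10.16 without PC-3 control replicate 2. It ranked 1 of 684 by fitted fold change in both lines. Raw counts for HSPA6 were 11647 to 14303 in MS13-treated DU 145 samples and 8 to 16 in their controls, so the controls set the precision of the fold. Of all panel counts, HSPA6 took 2.29% to 2.37% in the treated DU 145 samples and 5.70% to 6.44% in the treated PC-3 samples.

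HSPA1A encodes the main stress-inducible HSP70. Its coding sequence is nearly identical to that of HSPA1B, and the probe sequences were not used here, so the probe may count both. HSPA1A had 2218, 2414 and 2249 normalized counts in MS13-treated DU 145 samples, against 52.3, 35.5 and 49.9 in DU 145 controls. It had 3477, 3868 and 4126 in MS13-treated PC-3 samples, against 41.3, 33.5 and 40.9 in PC-3 controls. Treated and control samples were far apart, and the controls of the lines overlapped each other. The log2 fold change was 5.65 ± 0.14 (SE) in DU 145 (adjusted p = 1.88e-66) and 6.63 ± 0.16 (SE) in PC-3 (adjusted p = 6.78e-69), the second of all tested genes in both lines. The control means were above the limit, at 45.9 ± 9.08 (SD, n = 3) in DU 145 and 39.2 ± 2.88 (SD, n = 2) in PC-3, but near enough to it that the background sets part of the fold. The ratio of means was 49.97 in DU 145 and 97.5 in PC-3, and 74.0 and 163 after the mean of the negative probes was taken off.

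HSPA2 encodes an HSP70 that is abundant in the testis and needed for spermatogenesis in mice. It had 1658, 1702 and 1716 normalized counts in MS13-treated DU 145 samples, against 278, 269 and 258 in DU 145 controls. In PC-3 it had 762, 690.2 and 696 in MS13-treated samples, against 202, 213 and 209 in controls. Unlike the other HSP70 genes, HSPA2 was well above the limit in control cells, and it reached its highest level in MS13-treated DU 145 cells. The log2 fold change was 2.66 ± 0.061 (SE) in DU 145 (adjusted p = 1.46e-56) and 1.79 ± 0.076 (SE) in PC-3 (adjusted p = 2.43e-36). Within each library, which no scaling can alter, the log2 ratio of HSPA1A to HSPA2 was 3.01 higher in MS13-treated than in control DU 145 cells and 4.81 higher in MS13-treated than in control PC-3 cells.

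HSPB1 encodes HSP27, a small heat shock protein that holds unfolded proteins in solution and is phosphorylated downstream of p38 kinase. It had 6082, 6361 and 5832 normalized counts in MS13-treated DU 145 samples, against 326, 367 and 385 in DU 145 controls. It had 7132, 7004 and 6982 in MS13-treated PC-3 samples, against 521, 498 and 565 in PC-3 controls. The treated samples of each line lay far above every control. The rise of HSPB1 was 4.08 ± 0.056 (log2, SE) in DU 145 (adjusted p = 7.42e-73, rank 4 of 684) and 3.74 ± 0.054 in PC-3 (adjusted p = 1.72e-68, rank 3 of 684).

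HSP90B1, the GRP94 gene whose upstream window holds both endoplasmic reticulum stress elements, had 4099, 4349 and 4236 normalized counts in MS13-treated DU 145 samples, against 1603, 1850.4 and 1708 in DU 145 controls. It had 3875, 3646 and 4140 in MS13-treated PC-3 samples, against 1944, 1858 and 1756 in PC-3 controls. Treated and control samples did not overlap within a line, whereas the treated groups of the lines overlapped each other, as did the controls. The log2 fold change of HSP90B1 was 1.29 ± 0.042 (SE) in DU 145 (adjusted p = 6.54e-43) and 1.06 ± 0.047 (SE) in PC-3 (adjusted p = 1.08e-33). These were the smallest rises among the 5 heat shock genes. The log2 ratio of HSPB1 to HSP90B1 within a library was 2.79 higher in MS13-treated than in control DU 145 cells and 2.69 higher in MS13-treated than in control PC-3 cells.

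**Figure D2:**
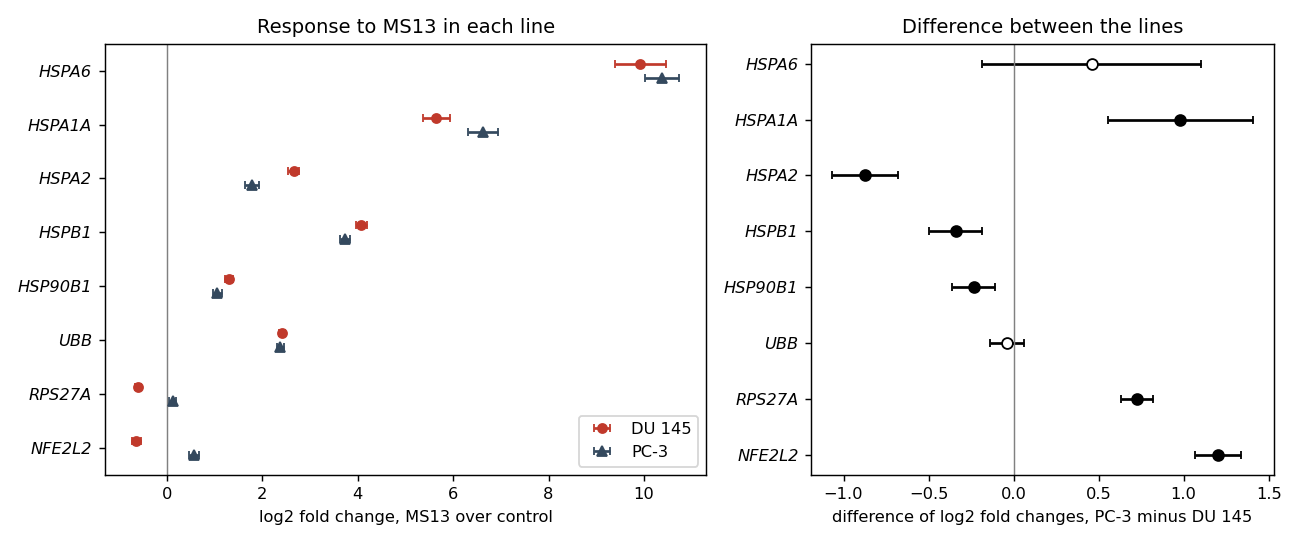
Left, log2 fold change of the 8 genes, MS13 over control, in DU 145 (circles) and PC-3 (triangles), with 95% intervals of the fit. Right, the difference of these log2 fold changes, PC-3 minus DU 145, with 95% intervals, filled where the difference passed the test; HSPA1A, RPS27A and NFE2L2 lie above 0, and HSPA2, HSPB1 and HSP90B1 below it. The HSPA6 values rest on control means under the background limit and fix no size.

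UBB is a polyubiquitin gene, transcribed as repeats of ubiquitin that are cut apart after translation, and it is known to be raised by stress. It had 24957, 26607 and 25452 normalized counts in MS13-treated DU 145 samples, against 4701, 4919.7 and 4838 in DU 145 controls. It had 45425, 46798 and 47767 in MS13-treated PC-3 samples, against 9079, 9046 and 8832 in PC-3 controls. UBB was thus higher in PC-3 than in DU 145 cells under each condition, and the treated samples were above every control. The log2 fold change was 2.41 ± 0.034 (SE) in DU 145 (adjusted p = 1.78e-67) and 2.37 ± 0.036 (SE) in PC-3 (adjusted p = 6.77e-63).

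RPS27A encodes a ubiquitin fused to the ribosomal protein S27a and is transcribed with the other ribosomal protein genes. It had 48784, 48684 and 46914 normalized counts in MS13-treated DU 145 samples, against 74089, 74414 and 71073 in DU 145 controls. It had 59142, 58150 and 56635 in MS13-treated PC-3 samples, against 54297, 52983 and 51987 in PC-3 controls. RPS27A was therefore lower in treated DU 145 cells and slightly higher in treated PC-3 cells, with no overlap in either line. The log2 fold change was -0.60 ± 0.031 (SE) in DU 145 (adjusted p = 5.96e-30) and 0.12 ± 0.035 (SE) in PC-3 (adjusted p = 0.00196). TMM scaling brought the fall in DU 145 to -0.18, still past the test, and in PC-3 the call was lost with the positive control probes (0.054) and after subtraction of the negative probes (0.076). The ratio of the ubiquitin genes within a library is free of scaling: the log2 ratio of UBB to RPS27A was 3.02 higher in MS13-treated than in control DU 145 cells and 2.25 higher in MS13-treated than in control PC-3 cells. RPS27A took 10.4% to 10.7% of all panel counts in MS13-treated DU 145 samples and 13.4% to 14.1% in their controls, while UBB took 5.46% to 5.75% in the treated samples and 0.894% to 0.915% in the controls. In PC-3, RPS27A took 9.86% to 10.2% in MS13-treated samples and 8.66% to 8.95% in controls, and UBB took 7.83% to 8.32% in MS13-treated samples and 1.471% to 1.497% in controls.

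NFE2L2 moved in opposite directions in the lines. It had 807, 807 and 768 normalized counts in MS13-treated DU 145 samples, against 1188, 1285 and 1221 in DU 145 controls. It had 1348, 1362 and 1356 in MS13-treated PC-3 samples, against 907, 949 and 892 in PC-3 controls. No treated sample overlapped a control in either line. The log2 fold change was -0.64 ± 0.046 (SE) in DU 145 (adjusted p = 1.11e-21) and 0.57 ± 0.050 (SE) in PC-3 (adjusted p = 4.29e-17). With TMM scaling NFE2L2 changed by -0.21 in DU 145 and 0.75 in PC-3, and both calls held. Neither change reached the DEG threshold.

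**Figure D3:**
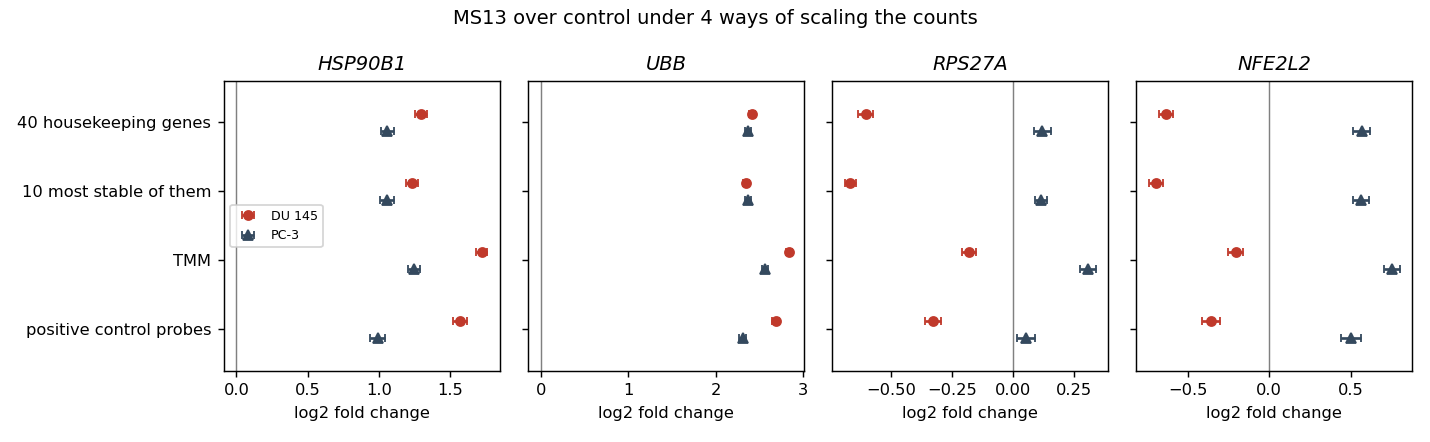
Log2 fold change, MS13 over control, of HSP90B1, UBB, RPS27A and NFE2L2 in DU 145 (circles) and PC-3 (triangles) under 4 ways of scaling the counts, with SE bars. The opposite signs of NFE2L2 (-0.64 and 0.57 with the 40 housekeeping genes) were kept under each scaling, while the RPS27A value in PC-3 fell to 0.054 with the positive control probes and lost its call.

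The housekeeping genes themselves varied. Their log2 fold changes ran from -2.15 to 1.35 in DU 145, with 7 of 40 beyond a fold of 2, and from -3.48 to 1.48 in PC-3, with 5 of 40. The error this puts on the scaling is 0.12 in DU 145 and 0.13 in PC-3 (SE of the mean log2 fold change). That is as large as the RPS27A change in PC-3. It does not cover the choice of scaling, since TMM moved the median of all tested genes in DU 145 by 0.43 and left falls of -0.18 for RPS27A and -0.21 for NFE2L2.

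The difference between the responses, PC-3 minus DU 145, was tested as an interaction. It was past the threshold and positive for 3 of the 8 genes, against 32.0% of all tested genes, and negative for 3, against 18.0%. These backgrounds also moved with the scaling, with 219 genes positive and 123 negative in the housekeeping scaling, 129 and 190 under TMM, and 94 and 217 under positive-probe scaling. NFE2L2 had the largest positive difference, 1.20 ± 0.068 (SE, adjusted p = 1.01e-26), followed by HSPA1A at 0.98 ± 0.21 (SE, adjusted p = 6.61e-05) and RPS27A at 0.72 ± 0.047 (SE, adjusted p = 2.47e-23). The negative ones were HSPA2 at -0.87 ± 0.098 (SE, adjusted p = 3.48e-12), HSPB1 at -0.34 ± 0.077 (SE, adjusted p = 0.00012) and HSP90B1 at -0.24 ± 0.063 (SE, adjusted p = 0.00103). These SEs leave out the scaling error of 0.12 in DU 145 and 0.13 in PC-3, which is not small beside the HSPB1 and HSP90B1 differences. For these 6 genes the sign and the call held under the 21 alternatives, including each replicate left out. The nSolver normalization of the study was not among the alternatives. The HSP70 genes thus did not respond alike: HSPA1A rose more in PC-3 and HSPA2 rose more in DU 145. The UBB difference was -0.04, with a 95% interval of -0.14 to 0.060 (adjusted p = 0.54), and it passed the threshold under TMM (-0.28) and under positive-probe scaling (-0.38). The HSPA6 difference was 0.46, with an interval of -0.18 to 1.10 (adjusted p = 0.27). It turned to -1.46 when the negative probes were subtracted, and with both control means under the limit its size is not fixed.

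Among the controls, 7 of the 8 genes differed between PC-3 and DU 145, against 67.0% of all tested genes (246 higher and 212 lower, or 304 and 161 with the 10 most stable housekeeping genes). UBB was higher in PC-3 controls, at 9004 ± 106 (SD, n = 2), against 4820 ± 110.5 (SD, n = 3) in DU 145 controls (log2 fold change 0.90 ± 0.038 SE, adjusted p = 8.23e-36). HSPB1 was also higher in PC-3 controls, at 526 ± 7.63 (SD, n = 2), against 359 ± 30.3 (SD, n = 3) in DU 145 controls (0.55 ± 0.069 SE, adjusted p = 2.97e-11). RPS27A and NFE2L2 were lower in PC-3 controls, by log2 fold changes of -0.46 ± 0.035 (SE) and -0.43 ± 0.050 (SE). HSPA2 was lower by -0.37 ± 0.085 (SE), a call that was lost with the 10 most stable housekeeping genes (-0.15). HSP90B1 differed by 0.11 ± 0.049 (SE, adjusted p = 0.035), which was lost under 8 of 21 alternatives, among them leaving out DU 145 control replicate 1 (0.067) or 3 (0.11) and PC-3 control replicate 1 (0.067) or 2 (0.10). HSPA6 passed the test as well, but no fold is given because both control means were under the limit. HSPA1A did not pass, with a difference of -0.24 and an interval of -0.66 to 0.18 (adjusted p = 0.32).

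Among the MS13-treated cells, 6 of the 8 genes were higher in PC-3, against 48.4% of all tested genes, and 2 were lower, against 25.6% (331 higher and 175 lower, or 222 and 228 under TMM, 184 and 257 under positive-probe scaling, and 418 and 130 with the 10 most stable housekeeping genes). HSPA6 was 3.31-fold higher in treated PC-3 than in treated DU 145 cells, at 34984 ± 1964 against 10576 ± 328 (SD, n = 3 each, adjusted p = 7.63e-57). UBB was 1.82-fold higher, at 46663 ± 1176 against 25672 ± 847 (SD, n = 3 each, adjusted p = 5.60e-39), close to the 1.87-fold difference of the controls. With the positive control probes the log2 difference was 0.44 in treated cells and 0.81 in controls, so this closeness depends on the scaling. NFE2L2 was 1.71-fold and HSPA1A 1.67-fold higher in treated PC-3 cells. HSPA2 was lower in treated PC-3 cells, at 716 ± 39.9 against 1692 ± 30.1 (SD, n = 3 each, log2 fold change -1.24 ± 0.049 SE, adjusted p = 2.92e-38). The small differences of HSPB1 (0.21), RPS27A (0.27) and HSP90B1 (-0.12) changed sign under at least 1 other scaling.

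By the order of the group means, HSPA6, HSPB1 and UBB shared an order: treated PC-3, treated DU 145, control PC-3 and control DU 145. Both HSPA6 control means were under the limit, so the order of its controls is not fixed. For HSPB1 the order of the treated groups turned under TMM (-0.090) and with the positive control probes (-0.22). With the 40 housekeeping genes, RPS27A was highest in DU 145 controls and lowest in MS13-treated DU 145 cells. In that scaling NFE2L2 was highest in MS13-treated PC-3 cells and lowest in MS13-treated DU 145 cells. The lowest group of both genes turned to control PC-3 with the positive control probes. Against DU 145 controls, RPS27A was then -0.33 in treated DU 145 and -0.54 in control PC-3, and NFE2L2 -0.36 and -0.52. It turned under TMM too, where treated DU 145 was at -0.180 (RPS27A) and -0.208 (NFE2L2). Control PC-3 was at most -0.237 and -0.214 under any alternative. When log2 group means were centred on each gene, RPS27A and NFE2L2 were the closest of the 8 to each other (root mean square difference 0.21 over 4 groups), followed by HSPA2 and HSP90B1 (0.68). No distance is given for HSPA6, whose control means were under the limit.

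**Figure D4:**
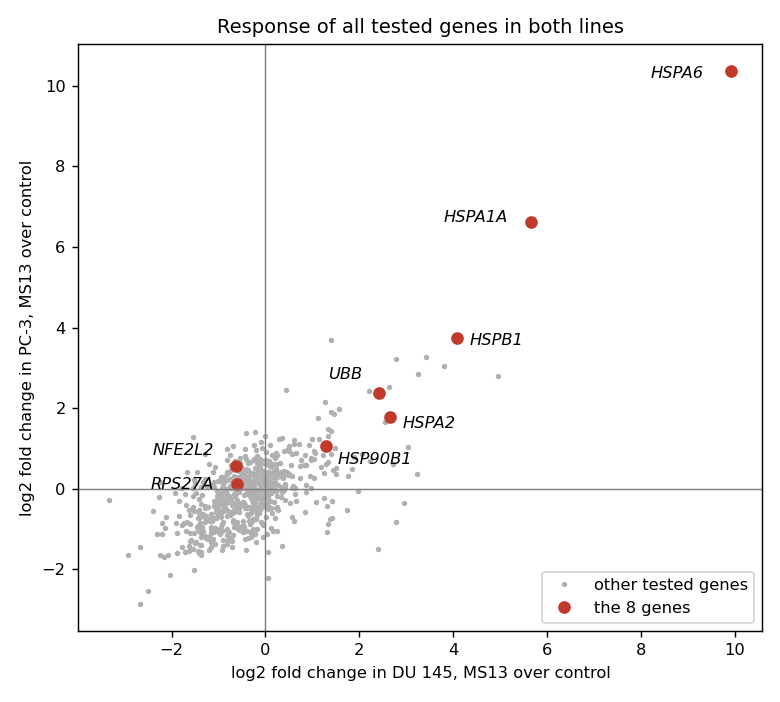
Log2 fold change of each of the 684 tested genes, MS13 over control, in DU 145 (x axis) and PC-3 (y axis), with the 8 genes in red. HSPA6 and HSPA1A lie beyond all other genes in both lines, and NFE2L2 lies left of 0 and above it, falling in DU 145 and rising in PC-3.

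The panel genes with the most similar pattern over the 4 groups were found among 520 genes above the limit in at least 1 group. For UBB these were NPM1, a nucleolar histone chaperone (root mean square difference 0.26, log2 fold changes 2.20 in DU 145 and 2.41 in PC-3), and FLNC, a filamin that links actin (0.35). For HSPB1 they were GADD45A, a gene induced by DNA damage and other stress (0.34, log2 fold changes 3.41 and 3.27), and DDIT3 (0.57). For HSPA2 they were GADD45G (0.32) and NGFR (0.36). Both were above the limit only in MS13-treated DU 145 cells, so the background sets part of these distances. For HSP90B1 the nearest were the kinases MAP3K8 (0.15) and MAP3K13 (0.20). For NFE2L2 they were CDKN1B, an inhibitor of cyclin-dependent kinases (0.068), and SFN (0.090), and for RPS27A COL2A1 (0.076) and CDKN2C (0.082). HSPA1A had no near match, with GADD45A (1.44) and MMP3 (1.46, under the limit in the controls of both lines) closest. The same 2 genes came closest to HSPA6, with no distance given because the HSPA6 control means were under the limit.

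Of the wider stress pathways the panel holds little. None of 24 other listed chaperones and heat shock factors was measured (0 of 24). Of 23 listed genes of endoplasmic reticulum stress 5 were measured and 4 tested, of which 2 rose and 1 fell in each line (medians -0.03 in DU 145 and 0.63 in PC-3, or 0.40 and 0.81 under TMM, where neither fall passed). Over all tested genes 19.0% rose and 47.1% fell in DU 145, and 21.9% rose and 36.8% fell in PC-3. DDIT3, which encodes the stress factor CHOP, averaged 6112 ± 163 normalized counts in MS13-treated DU 145 cells and 639 ± 31.4 in DU 145 controls (SD, n = 3 each), and its rise on the log2 scale was 3.25 ± 0.046 (SE, adjusted p = 8.17e-70). In PC-3 it averaged 4069 ± 108 in treated cells (SD, n = 3) and 563 ± 6.39 in controls (SD, n = 2), and its rise was 2.85 ± 0.052 (SE, adjusted p = 6.86e-61). DDIT4, which encodes the mTORC1 inhibitor REDD1, rose by 0.30 ± 0.068 (SE) in DU 145 and 1.23 ± 0.14 (SE) in PC-3. CREB3L4 fell in PC-3 (-0.48 ± 0.19 SE, adjusted p = 0.026) and CREB3L1 is the call in DU 145, where both its means were under the limit (13.2 normalized counts in treated and 22.0 in control cells). CREB3L3 was under the limit in all 4 groups and was not tested.

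Of 30 listed regulators and targets of NRF2 only GSK3B, a kinase that marks NRF2 for degradation, was measured, so the panel does not read the antioxidant program itself. GSK3B fell by 0.36 on the log2 scale in DU 145 (± 0.055 SE, adjusted p = 1.89e-08) and differed by 0.05 ± 0.050 (SE, adjusted p = 0.37) in PC-3. Neither value was stable to the scaling: under TMM GSK3B changed by 0.07 in DU 145 (adjusted p = 0.26) and by 0.24 in PC-3 (adjusted p = 1.54e-05).

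Of 45 listed genes of ubiquitin conjugation and removal 19 were measured. In DU 145, 5 rose and 8 fell (median -0.30), beside 19.0% and 47.1% of all tested genes. In PC-3, 8 rose and 9 fell (median -0.15), beside 21.9% and 36.8%. Under TMM 9 of the 19 rose and 7 fell in DU 145 (median 0.13), beside 33.0% and 29.7% of all tested genes. In PC-3 under TMM 8 rose and 6 fell (median 0.03), beside 31.1% and 31.3%. The parts of the SCF ubiquitin ligase did not move together. SKP1, its adaptor, rose in both lines (0.22 ± 0.033 SE in DU 145 and 0.59 ± 0.038 SE in PC-3). The scaffold CUL1 fell (-1.29 ± 0.044 SE in DU 145 and -0.47 ± 0.044 SE in PC-3), as did the F-box protein SKP2 (-1.22 ± 0.055 SE in DU 145 and -1.20 ± 0.065 SE in PC-3). The RING protein RBX1 fell as well (-0.75 ± 0.038 SE in DU 145 and -0.25 ± 0.043 SE in PC-3), but its call in PC-3 was lost under TMM (-0.065). MDM2, the ubiquitin ligase of p53, rose by 0.50 ± 0.041 (SE) in DU 145 and 0.36 ± 0.047 (SE) in PC-3. BAP1, which removes ubiquitin from histone H2A, rose by 0.27 ± 0.054 (SE) in DU 145 and 0.40 ± 0.056 (SE) in PC-3.

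Of 13 listed kinases of the p38 pathway, which leads to HSP27 phosphorylation, 4 were measured. In DU 145, 1 rose and 3 fell, and in PC-3 0 rose and 3 fell, with medians of -1.05 in DU 145 and -0.80 in PC-3, beside 47.1% and 36.8% of all tested genes that fell. Under TMM 1 rose and 2 fell in DU 145 (median -0.63), while in PC-3 1 rose and 3 fell (median -0.61). MAP3K5, which encodes the stress kinase ASK1, averaged 46.2 ± 5.46 in MS13-treated and 64.6 ± 6.11 in control DU 145 cells (SD, n = 3 each, adjusted p = 0.0055), and 36.3 in MS13-treated PC-3 cells and 66.4 in PC-3 controls (log2 fold change -0.90 ± 0.19 SE, adjusted p = 1.62e-05). MAPK12, a p38 isoform, fell in DU 145, at 22.9 ± 4.36 in treated and 99.1 ± 7.35 in control cells (SD, n = 3 each, log2 fold change -2.11 ± 0.18 SE). Its treated mean was just above the limit of 20.5, so the background sets part of this fold. In PC-3 MAPK12 averaged 33.5 in treated cells, under the limit, and 58.1 in controls. MAP2K6 had 10.8 in treated DU 145 cells, under the limit, against 32.9 in controls, and fell by 1.55 on the log2 scale in PC-3. The MAP3K5 call in DU 145 was lost under TMM (-0.05) and positive-probe scaling (-0.20). MAP2K4 rose by 0.15 ± 0.055 (SE, adjusted p = 0.011) in DU 145, a call lost with the 10 most stable housekeeping genes (0.09), and differed by 0.03 ± 0.071 (SE, adjusted p = 0.79) in PC-3, where it passed under TMM (0.21).

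Marker genes bore on the identity of the samples. The epithelial genes CDH1 and EGFR, 2 of 6 listed, were above the limit in all 4 groups. CDH1 averaged 146 normalized counts in MS13-treated and 378 in control DU 145 cells, and 1079 in MS13-treated and 1044 in control PC-3 cells. EGFR averaged 657 in MS13-treated and 1590 in control DU 145 cells, and 1034 in MS13-treated and 1711 in control PC-3 cells. Their sum was 780 to 829 in MS13-treated and 1955 to 1991 in control DU 145 samples, and 2078 to 2157 in MS13-treated and 2680 to 2806 in control PC-3 samples, and its part in the stress gene results was not tested. Of 7 measured leukocyte genes 6 were under the limit in all 4 groups, the exception being IL7R in PC-3, and so were all 6 measured stromal and endothelial genes. TMPRSS2, an androgen-responsive gene, was above the limit in PC-3 and not in DU 145.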

How the data were processed

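Total RNA of 12 samples was measured on the nCounter PanCancer Pathway Panel. The values deposited by the authors are raw counts per probe, with the 6 positive and 8 negative control probes listed and no normalization; the nSolver normalization of the study is not in them. Scaling used the geometric mean of 40 housekeeping genes, listed from general knowledge and left out of the tests. Genes with a mean count under 10 were left out, and 684 were tested in 1 fit of 4 groups (R 4.3.3, edgeR 4.0.16, glmQLFit and glmQLFTest), with Benjamini-Hochberg adjustment at 0.05. SEs are those of the fitted log2 fold change. PC-3 control replicates 2 and 3 were added and counted as 1 sample. A fold against a group mean under the background limit was computed against that limit. The method was tested on simulated data.

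The 8 genes, the lists and the tests were chosen with earlier results of these data known. All 8 genes are named, with all measured genes of a list of up to 12 and otherwise the 6 with the highest mean, and the 2 genes nearest in pattern to each of the 8. Promoter windows come from RefSeq (GRCh38.p14), in which all 8 genes were matched; the windows listed for UBB begin inside the annotated gene. Alternatives were DESeq2 1.42.0, TMM, the 10 most stable housekeeping genes (geNorm), positive control probes A to E, subtraction of the mean of the negative probes, a minimum mean of 50, no filter on low counts, the lines fitted apart, 12 separate samples, the replicate number as a block, and each replicate left out. With panel totals of 437471 to 604629 counts, counting error limits the genes with low counts.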

Additional observations from a re-analysis of the deposited data

Results flagged for a closer look

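For 6 of the 8 genes the response to MS13 differed between the lines by the test of the difference itself (PC-3 minus DU 145, log2 scale, edgeR's quasi-likelihood test, adjusted over 684 genes). Such differences were common on the panel: by the same test 32.0% of all tested genes had a positive difference and 18.0% a negative one. NFE2L2 differed by 1.20 (adjusted p = 1.01e-26), rising in 3 of 3 MS13-treated PC-3 samples and falling in 3 of 3 MS13-treated DU 145 samples against the control means. RPS27A differed by 0.72 (adjusted p = 2.47e-23), with the DU 145 samples lower and the PC-3 samples higher than their controls. HSPA1A differed by 0.98 (adjusted p = 6.61e-05), HSPA2 by -0.87 (adjusted p = 3.48e-12), HSPB1 by -0.34 (adjusted p = 0.00012) and HSP90B1 by -0.24 (adjusted p = 0.00103). These 4 genes rose in both lines. The p-values leave out the scaling error, 0.12 in DU 145 and 0.13 in PC-3, which is not small beside the HSPB1 and HSP90B1 differences. Groups of 3 samples were not tested for a single sample far from the others. By the chi-square over genes, MS13-treated PC-3 replicate 3 differed more from replicates 1 (2.21 per degree of freedom) and 2 (1.70) than those did from each other (1.17).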

How the results depend on the processing

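Over the 8 genes, 5 comparisons and the alternatives other than leaving out a replicate, 360 values kept their direction and side of the threshold, 9 lost the call, 2 gained one and 5 turned. All 5 that turned set MS13-treated PC-3 against MS13-treated DU 145 cells: HSPB1 (-0.090 with TMM, -0.22 with the positive control probes), RPS27A (-0.031 and -0.16) and HSP90B1 (0.15 with the 10 most stable housekeeping genes). Leaving out a replicate kept 475 values and lost 5 calls, all of HSP90B1 between the lines: 4 among the controls and 1 among the treated cells (-0.08 without PC-3 MS13 replicate 2). The replicate numbers showed no pairing of the samples (correlations -0.18 to 0.039 over 471 genes). This check cannot exclude a pairing, because replicates in most groups differed little beyond sampling noise. The replicate block with 12 separate samples changed 1 call, HSP90B1 between treated PC-3 and treated DU 145 cells (-0.03, adjusted p = 0.59), and no other. Of the 8 genes, 7 rose in PC-3 under positive-probe scaling and after subtraction of the negative probes, and 4 rose less in PC-3 than in DU 145 under TMM and positive-probe scaling. Of all tested genes, 20.5% rose in PC-3 under positive-probe scaling and 18.9% after the subtraction. The difference between the lines was negative for 27.8% under TMM and 31.7% under positive-probe scaling, against 18.0% in the housekeeping scaling. Subtracting the negative probes also ended the HSP90B1 call between treated PC-3 and treated DU 145 cells (-0.13). The cause of these changes was not tested. Depth limits HSPA6 and HSPA1A in controls, where raw counts were 8 to 50.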
